A study of Mus musculus with 10 samples.

Results

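The 10 genes of MHC class I antigen presentation considered here were examined in the jejunum of KSR23 and WT mice at postnatal day 5. They were taken by symbol from the count files, and all 10 were found among 24062 symbols and were among the 17632 genes with enough counts to be tested. WT were wild-type C57BL/6 mice (n = 5 libraries). KSR23 mice (n = 5 libraries, genotype label KSR23+) were also on the C57BL/6 strain and carried, in the ROSA26 locus, a cassette for both subunits of IL-23, p19 and p40, kept silent by a floxed STOP until removed by K14-cre. The keratin 14 promoter drives cre in keratinocytes, the cells the study targeted, and in other stratified epithelia. Jejunum was measured whole, and fewer cells of a type and less RNA per cell cannot be told apart in these data. The labels give neither sex nor litter, and the study describes the libraries of each group as biological replicates.

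MHC class I molecules display peptides made inside a cell to CD8+ T cells and to receptors on NK cells. Peptides are cut by the proteasome, whose catalytic subunits are exchanged for Psmb8, Psmb9 and Psmb10 in the immunoproteasome, carried into the endoplasmic reticulum by the transporter Tap1 and Tap2, and loaded with the help of tapasin (Tapbp) onto a heavy chain (H2-K1 or H2-D1 in the mouse) paired with beta-2 microglobulin (B2m). Nlrc5 is a transactivator that acts on the promoters of many of these genes, and interferon gamma is a classical inducer of the pathway.

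Most of the members lie on chromosome 17, and 4 of them next to one another. In mm10 (GENCODE M21 annotation), H2-K1 spans chr17:33996017-34000347 on the minus strand and H2-D1 spans chr17:35262730-35267499 on the plus strand. Psmb9 (chr17:34181987-34187764, minus strand), Tap1 (chr17:34187553-34197225, plus strand), Psmb8 (chr17:34197721-34201454, plus strand) and Tap2 (chr17:34203527-34216321, plus strand) follow one another, and Tapbp lies at chr17:33915899-33929292 on the plus strand. B2m is at chr2:122147686-122153083 on the plus strand. Psmb10 (chr8:105935735-105938444, minus strand) and Nlrc5 (chr8:94434356-94527272, plus strand) are on chromosome 8. Between 0.0% (B2m, Psmb10 and Nlrc5) and 18.6% (Tapbp, mostly with the antisense gene Gm19412) of the 75-base stretches of a member's transcripts also occurred in another gene. The share was 3.1% for H2-K1, 5.6% for H2-D1 and 8.3% for Tap2, counting exact matches only. Exons of Tap1 and Psmb9 overlap on opposite strands (2.4% and 3.4% of their stretches), and without a stated strand setting reads from that overlap cannot be assigned with certainty.

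Promoter windows (250 bases before to 50 bases after the start site, RefSeq, build GRCm38.p6) were found for 8 of the 10 genes, all but Tap2 and Nlrc5. Of these, 5 are shown, because H2-K1 and H2-D1 share their elements and varied together, B2m did not vary with them, and Tap1 and Psmb9 face away from each other across 1 window. Capitals mark matches on either strand to 5 letter patterns: an interferon regulatory factor site (GAANNGAAA), a gamma-activated sequence (TTCNNNGAA), an NF-kB site (matched here as GGGGATTCCC, with any bases allowed for the GA in its middle), the core of the X2 box (TGACG) and the CCAAT box (CCAAT).
H2-K1 (chr17:34000298-34000597, minus strand): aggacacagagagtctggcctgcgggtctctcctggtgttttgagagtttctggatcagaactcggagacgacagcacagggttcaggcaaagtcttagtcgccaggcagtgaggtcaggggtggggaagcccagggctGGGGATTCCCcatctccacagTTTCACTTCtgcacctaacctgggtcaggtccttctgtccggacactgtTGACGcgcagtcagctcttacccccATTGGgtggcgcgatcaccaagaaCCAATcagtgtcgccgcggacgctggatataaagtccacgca
H2-D1 (chr17:35262844-35263143, plus strand): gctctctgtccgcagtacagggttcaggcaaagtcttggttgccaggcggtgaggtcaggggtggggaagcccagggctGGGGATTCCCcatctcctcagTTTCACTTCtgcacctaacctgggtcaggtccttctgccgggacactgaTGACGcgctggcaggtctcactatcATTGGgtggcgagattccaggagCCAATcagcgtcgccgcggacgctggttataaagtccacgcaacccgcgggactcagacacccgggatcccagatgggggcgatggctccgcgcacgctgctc
B2m (chr2:122147437-122147736, plus strand): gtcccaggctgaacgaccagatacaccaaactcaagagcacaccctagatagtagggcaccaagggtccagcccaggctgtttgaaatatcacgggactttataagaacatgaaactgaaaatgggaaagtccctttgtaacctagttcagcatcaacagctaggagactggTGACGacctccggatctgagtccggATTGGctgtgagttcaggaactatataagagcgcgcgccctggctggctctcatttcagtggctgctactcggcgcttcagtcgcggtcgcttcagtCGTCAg
Tap1 (chr17:34187306-34187605, plus strand): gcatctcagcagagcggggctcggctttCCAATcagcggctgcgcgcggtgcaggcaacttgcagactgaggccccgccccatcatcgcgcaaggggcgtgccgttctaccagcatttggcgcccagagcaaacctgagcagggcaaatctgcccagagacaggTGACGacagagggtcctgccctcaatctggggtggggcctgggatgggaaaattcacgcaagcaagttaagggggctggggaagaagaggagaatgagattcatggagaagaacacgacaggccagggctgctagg
Psmb9 (chr17:34187281-34187580, minus strand): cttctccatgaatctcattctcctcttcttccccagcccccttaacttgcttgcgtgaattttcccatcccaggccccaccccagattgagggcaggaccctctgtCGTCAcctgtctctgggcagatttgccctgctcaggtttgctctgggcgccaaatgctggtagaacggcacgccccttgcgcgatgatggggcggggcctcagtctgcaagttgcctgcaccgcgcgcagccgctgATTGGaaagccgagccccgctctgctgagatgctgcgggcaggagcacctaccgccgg

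The windows of H2-K1 and H2-D1 held the interferon regulatory factor site and the NF-kB site in the same order, at −90 and −111 from the H2-K1 start and at −150 and −171 from the H2-D1 start. Their longest shared run was 47 bases, and it contained the NF-kB match. Across the 27025 promoter windows searched, 7.56% held the interferon regulatory factor pattern and 1.66% the NF-kB pattern, against 2 of 8 members for each. The first pattern allows only 1 spacing. The B2m window holds gaaactgaaa, with 1 more base between GAA and GAAA, which the pattern does not match. The count therefore does not show that B2m lacks such a site. The X2 core was in 5 of 8 members (H2-K1, H2-D1, B2m, Tap1 and Psmb9) and in 5681 of the 27025 windows, and the CCAAT box was in 6 of 8 and in 37.9%. The gamma-activated sequence was in 1 of 8, Psmb8 at −97, and in 8.47% of all windows. The windows of Tap1 and Psmb9 overlap by 275 bases, so the 2 sequences above are largely the same DNA read from opposite strands. Their X2 matches are the same bases, as are their CCAAT matches, so the counts of members above hold each of these sites for both genes. These matches are letters in a window and were not tested for binding.

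Library totals ran from 25.5 to 32 M counts in WT and from 31.2 to 60.9 M in KSR23. Across 17632 genes, the likelihood ratio test of edgeR with Benjamini-Hochberg adjustment called 3261 (18.5%) at an adjusted p under 0.05, 1716 with higher and 1545 with lower values in KSR23. WT 1 and KSR23 3 stood apart from the rest. Their deviations from their group means correlated across 9737 genes (r = 0.883, genes of 1 library not being independent), 1419 genes lay more than 1 log2 unit below the group mean in both, and none lay that far above in both. Replicates 4 and 5 of each group lay between the others, being the highest or lowest of their group at 8.54 to 18.4% of genes against 45.7 to 75.6% for replicates 1 to 3. The study describes all of them as biological replicates. If replicates 4 and 5 were not independent of the others, the SD, SE and p-values over 5 libraries would be too small, and this was not tested. For the 10 members these libraries were an extreme in 0 or 1 case each, against 5 to 8 for replicates 1 to 3. Values of the members are therefore also given without WT 1 and KSR23 3, and for replicates 1 to 3 alone. The 9 jejunum markers together held 94260 to 200600 CPM (counts per 1e6 counts of the library, after TMM scaling) in WT and 58030 to 106800 in KSR23. The 7 markers of other gut tissues that could be tested held at most 6.67. These sums do not go against the jejunum label, and whether they set it apart from neighbouring segments was not tested.

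**Figure D1:**
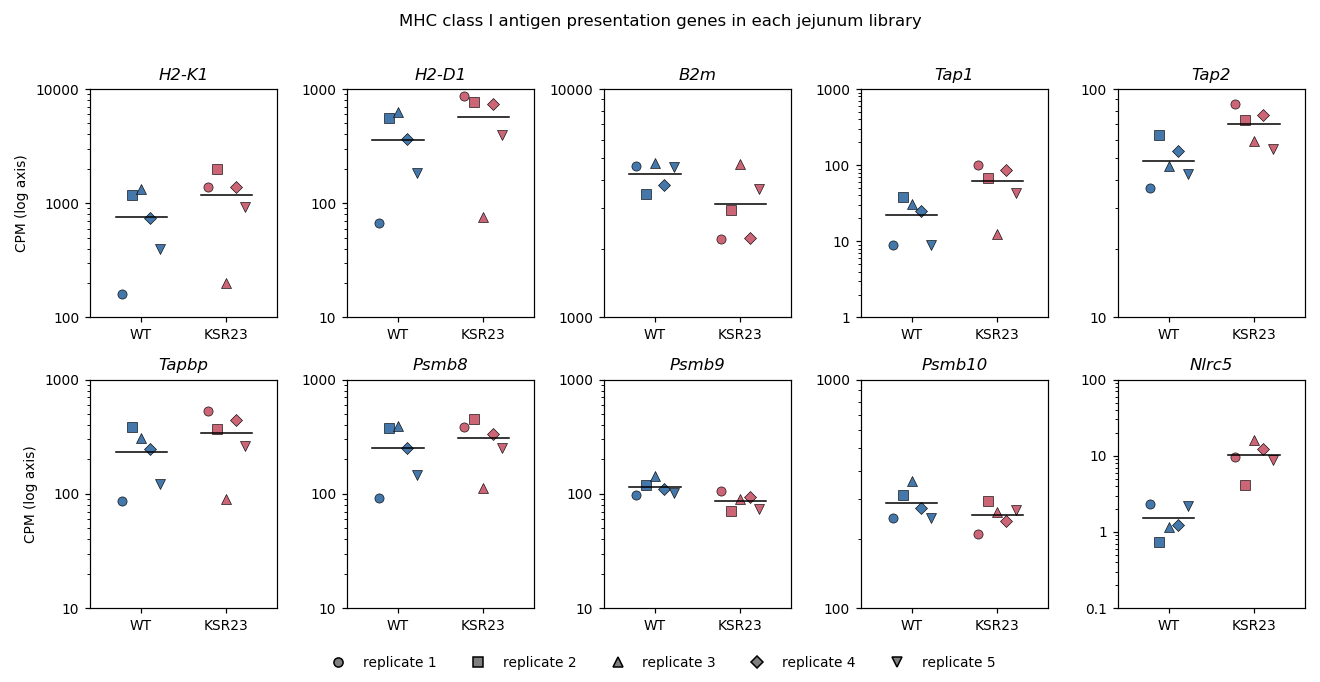
CPM of the 10 class I genes (log scale) in each of the 5 WT and 5 KSR23 libraries, with 1 panel a gene, 1 point a library a shape for each replicate number and a horizontal line at the mean CPM. Nlrc5 ran from 0.743 to 2.32 CPM in WT and from 4.19 to 16.3 in KSR23 with no overlap, and WT 1 and KSR23 3 were the lowest libraries of their groups for H2-K1 and H2-D1.

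Of the 10 genes, 2 were called higher in KSR23 (9.73% of all genes were), Nlrc5 and Tap1, and none was called lower (8.76%) by edgeR or by DESeq2. At an unadjusted p under 0.05 by the likelihood ratio test there were 3 higher and 0 lower. By the quasi-likelihood test 1 was called, Nlrc5, as higher (15.4% of all genes were called, 8.47% as higher and 6.91% as lower). The median log2 fold change of the members was 0.55, with 7 positive and 3 negative, against 0.03 for all genes tested, of which 51.1% were positive. The remaining 8 genes did not pass the test. Only Nlrc5 had no overlap between groups (14.4% of all genes).

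Nlrc5, the transactivator, was the member that differed most. Read counts in libraries 1 to 5 were 75, 21, 32, 43 and 58 for WT against 675, 130, 409, 683 and 310 for KSR23, or 2.3, 0.7, 1.2, 1.2 and 2.2 CPM against 9.6, 4.2, 16.3, 12.1 and 8.8. Every KSR23 library was above every WT library, and the lowest KSR23 value was that of library 2. The mean rose from 1.53 ± 0.685 CPM to 10.2 ± 4.44 (SD, n = 5). Here and throughout, ± is the SE for log2 fold changes and the SD over the 5 libraries of a group for CPM, CPM per kb and ratios. The log2 fold change of Nlrc5 was 2.73 ± 0.43, or 6.63-fold (edgeR likelihood ratio, adjusted p = 8.99e-08, and 0.00119 by the quasi-likelihood test). The log2 fold change was 2.70 without WT 1 and KSR23 3 (adjusted p = 1.28e-07) and 2.85 with replicates 1 to 3 alone (likelihood ratio, adjusted p = 0.00708), where the quasi-likelihood test no longer called it (adjusted p = 0.123). Nlrc5 was not low in the libraries that stood apart. WT 1 was the highest of its group and KSR23 3 the highest of its own.

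H2-K1 and H2-D1, the classical heavy chains, varied more between libraries than between groups. H2-K1 was at 159.4, 1189.1, 1323.4, 749.8 and 394.7 CPM in WT and at 1392.5, 1975.6, 201.5, 1375.1 and 929.5 in KSR23. H2-D1 was at 67.5, 559.5, 633.8, 363.1 and 182.5 CPM in WT and at 866.3, 771.9, 76.4, 742.6 and 398.9 in KSR23. In both genes WT 1 and KSR23 3 were by far the lowest of their groups, the other libraries of KSR23 lay above the WT median, and the groups overlapped. The log2 fold change was 0.62 ± 0.59 for H2-K1 (95% interval −0.53 to 1.77, adjusted p = 0.516) and 0.66 ± 0.62 for H2-D1 (interval −0.55 to 1.88, adjusted p = 0.515). Without the 2 libraries the estimates were 0.63 (adjusted p = 0.249) and 0.68 (adjusted p = 0.224), and with replicates 1 to 3 alone 0.45 (adjusted p = 0.906) and 0.47 (adjusted p = 0.905). The intervals hold values on both sides of 0, and a difference within them was not detectable with these libraries.

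B2m, the light chain of every classical class I molecule, did not follow the heavy chains. It was at 4583.8, 3481.3, 4761.9, 3811.2 and 4578.1 CPM in WT and at 2215.9, 2939.4, 4701.5, 2236.5 and 3665.2 in KSR23. The KSR23 libraries 1, 2 and 4 were below all WT libraries, and KSR23 3, the lowest library for the heavy chains, was the highest of its group for B2m. The log2 fold change was −0.43 ± 0.28 (interval −0.97 to 0.11, adjusted p = 0.303), −0.59 without WT 1 and KSR23 3 (adjusted p = 0.114) and −0.35 with replicates 1 to 3 alone (adjusted p = 0.861). With the Y-linked share of the counts as a further term it was −0.94 and passed (edgeR likelihood ratio, adjusted p = 0.0128), as it did, at −0.49, with the main within-group axis as a term (adjusted p = 0.0229). The ratio of H2-K1 plus H2-D1 counts to B2m counts ran from 0.0495 to 0.502 in WT and from 0.0591 to 1.02 in KSR23, a mean log2 difference of 1.14 that 5 against 5 libraries did not separate (two-sided exact permutation p = 0.278, adjusted over 5 ratios 0.609, smallest possible p = 0.00794). The difference was 0.62 without WT 1 and 1.87 without KSR23 3.

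The chains of the peptide transporter gave different values. Tap1 was at 9.1, 38.0, 30.6, 25.2 and 8.9 CPM in WT and at 101.1, 67.6, 12.5, 86.0 and 43.1 in KSR23. Of the 5 KSR23 libraries, 4 were above every WT library, and KSR23 3 lay among the WT values. The mean rose from 22.4 ± 13.0 to 62.1 ± 35.2 CPM (SD, n = 5). This was 1.47 ± 0.55 on the log2 scale, or 2.78-fold, which just passed (likelihood ratio, adjusted p = 0.0457) and did not by the quasi-likelihood test (adjusted p = 0.0912). It passed without WT 1 and KSR23 3 (1.54, adjusted p = 0.00409), without WT 2 (adjusted p = 0.0241) and without KSR23 3 (adjusted p = 0.0024). It did not pass when any other 1 library was left out, with adjusted p from 0.0545 (without KSR23 5) to 0.132 (without WT 5), nor with replicates 1 to 3 alone (1.25, adjusted p = 0.559). The likelihood ratio test also did not call Tap1 with replicate number as a further term (1.48, adjusted p = 0.143). Nor did it with library totals in place of TMM scaling (adjusted p = 0.0718). Tap2 was at 37.0, 62.8, 46.2, 53.4 and 42.5 CPM in WT and at 85.8, 73.2, 59.3, 77.1 and 54.7 in KSR23. Its groups overlapped and its log2 fold change was 0.53 ± 0.27 (interval 0.01 to 1.06, adjusted p = 0.162), 0.50 without WT 1 and KSR23 3 (adjusted p = 0.198) and 0.61 with replicates 1 to 3 alone (adjusted p = 0.697). Tap2 varied far less between libraries than Tap1, with an SD of log2 CPM of 0.295 against 0.994 in WT. The ratio of Tap1 to Tap2 was higher in KSR23 by 0.87 log2 units, which did not pass (exact permutation p = 0.151, adjusted p = 0.609).

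Tapasin, which holds the empty class I molecule at the transporter, followed the heavy chains. Tapbp was at 86.9, 388.7, 305.8, 249.2 and 122.5 CPM in WT and at 533.6, 370.3, 89.4, 446.4 and 261.6 in KSR23. As for the heavy chains, WT 1 and KSR23 3 were the lowest, and the groups overlapped, with a log2 fold change of 0.56 ± 0.49 (adjusted p = 0.478). It was 0.60 without those 2 libraries (adjusted p = 0.256) and 0.38 with replicates 1 to 3 alone (adjusted p = 0.906).

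The 3 subunits of the immunoproteasome were not called. Psmb8 was at 92.4, 376.9, 389.9, 250.5 and 144.8 CPM in WT and at 388.4, 448.1, 112.6, 331.8 and 250.4 in KSR23, a log2 fold change of 0.29 ± 0.45 (adjusted p = 0.725). Psmb9 was at 96.95, 118.8, 142.4, 109.95 and 102.0 CPM in WT and at 106.7, 70.7, 90.5, 94.1 and 73.2 in KSR23, −0.39 ± 0.25 (adjusted p = 0.300). Psmb10 was at 246.8, 312.0, 359.3, 274.8 and 247.2 CPM in WT and at 209.9, 295.7, 262.1, 240.4 and 269.9 in KSR23, −0.17 ± 0.24 (adjusted p = 0.682). Psmb8 was low with the heavy chains in WT 1 and KSR23 3, while Psmb9 and Psmb10 stayed within a narrow range. Without those 2 libraries the log2 fold changes of Psmb8, Psmb9 and Psmb10 were 0.29, −0.46 and −0.23, and with replicates 1 to 3 alone 0.18, −0.39 and −0.22, none of them called. Psmb8 was at 0.08 without WT 1 and 0.53 without WT 2. The constitutive subunits they replace, Psmb5, Psmb6 and Psmb7, had log2 fold changes of 0.05, −0.25 and 0.15 and none passed. The log2 ratios of Psmb8 to Psmb5, Psmb9 to Psmb6 and Psmb10 to Psmb7 differed by 0.32, −0.11 and −0.28 between KSR23 and WT (exact permutation p = 0.5, 0.786 and 0.365). Of the 75-base stretches of Psmb5, 36.8% also occur in another gene, mostly Gm3375, more than for any member. Neither test of edgeR called any of the 14 genes of the constitutive proteasome, against 18.5% of all genes by likelihood ratio and 15.4% by quasi-likelihood. None of the 14 had an unadjusted p under 0.05 by the likelihood ratio test.

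**Figure D2:**
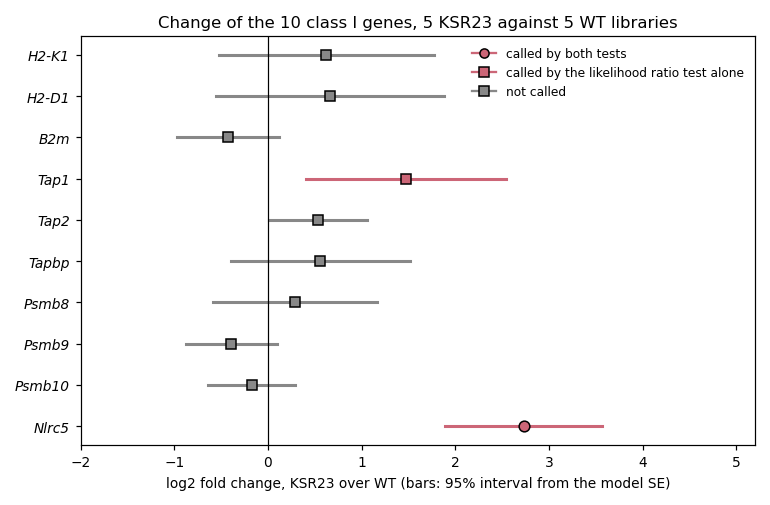
Log2 fold change, KSR23 over WT, of each class I gene with its 95% interval from the edgeR model (bars). Red marks genes called by the likelihood ratio test, a circle those also called by the quasi-likelihood test, and grey the rest. Only Nlrc5 (2.73) and Tap1 (1.47) were called, and the intervals of H2-K1 and H2-D1 reach from about −0.5 to above 1.7.

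Tap1 and Psmb9 share most of a promoter window, and Psmb9 itself was not called. The log2 ratio of Tap1 to Psmb9 was −2.58 ± 0.84 in WT and −0.78 ± 1.20 in KSR23, a difference of 1.81, given as a description with no test because the pair was chosen after its values were seen. The ratio was near equal in KSR23 1, 2 and 4 (−0.08, −0.06 and −0.13), lower in KSR23 5 (−0.76) and at −2.86 in KSR23 3, within the WT range of −3.52 to −1.64.

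Scaled by transcript length, the order of the genes was close in both groups. B2m was the highest, at 4934 CPM per kb in WT and 3665 in KSR23, followed in WT by H2-K1 (471 ± 308), Psmb10 (220 ± 36.5), H2-D1 (172 ± 114), Psmb8 (154 ± 82.2), Psmb9 (84.3 ± 13.2) and Tapbp (79.6 ± 43.4). Then came Tap2 (14.1 ± 2.91), Tap1 (7.57 ± 4.41) and, lowest, Nlrc5 (0.202 ± 0.0904). B2m lay clear of H2-K1, but from H2-K1 down to Tapbp the range of each gene overlapped that of the next, as did those of Tap2 and Tap1. In KSR23 the neighbours H2-D1 and Psmb10, Tapbp and Psmb9, and Tap1 and Tap2 changed places, each within overlapping ranges. Nlrc5 stayed lowest at 1.34 CPM per kb.

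The members did not vary as 1 block. Across the 10 libraries, taken as deviations from the group mean, 31 of 45 pairs of members had a positive correlation and 16 were above 0.5 (median r = 0.367, range −0.825 to 0.990). A set of 5 genes ran together, as pairs among H2-D1, Tapbp, Psmb8, H2-K1 and Tap1 had r from 0.926 to 0.990. The mean deviation of the 10 includes each gene itself and is led by genes with large deviations, which raises their r with it. With that mean the 5 genes had r from 0.966 to 0.991, and Tap2 0.772. Psmb9 (0.479) and Psmb10 (0.356) followed loosely, and B2m (−0.715) and Nlrc5 (−0.711) ran the other way. These values describe 10 libraries that share a total and the axis along which WT 1 and KSR23 3 lie at 1 end, an axis that held 72.2% of the within-group variance of genes outside the lists. The transcripts of the 5 genes had 52.5 to 57.1% GC, against 56.9% for Tap2, 54.1% for Psmb9, 56.5% for Psmb10, 52.6% for Nlrc5 and 41.2% for B2m, and the part of base composition was not tested. Among genes outside the pathway, the ones whose deviations were most like the mean of the members were Siah1b (r = 0.997), Bag4, Sptlc2, Dync1li1 and Ppcs (each 0.996), over 10 libraries, as a description.

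**Figure D3:**
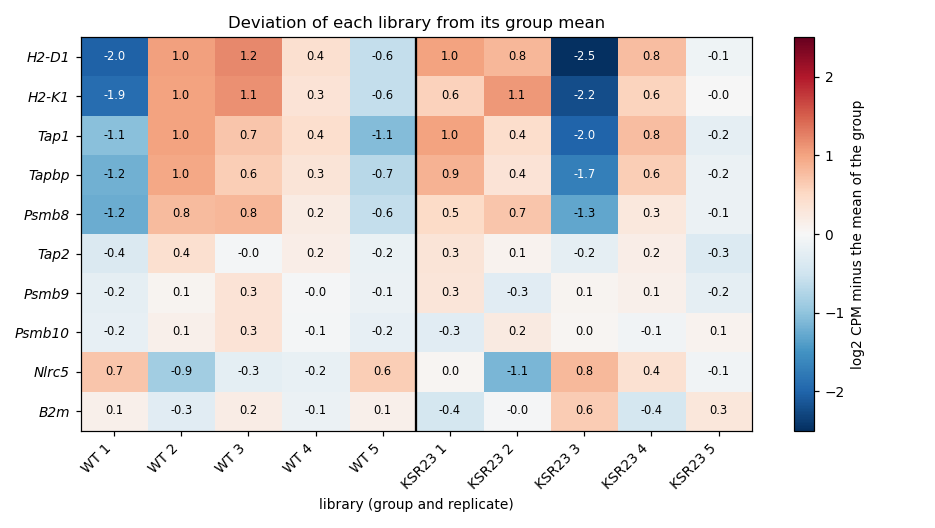
Deviation of log2 CPM from the group mean, in log2 units, for each class I gene (rows) in each library (columns), drawn as a colour scale centred at 0. H2-K1 is at −1.90 in WT 1 and −2.21 in KSR23 3, with H2-D1, Tap1, Tapbp and Psmb8 alike, while Nlrc5 and B2m are above their mean there.

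With that within-group axis as a term of the model, 7 of the 10 members passed, 6 higher and 1 lower, beside 36.8% of all genes. H2-K1 was then at 0.75 (adjusted p = 0.0138), H2-D1 at 0.70 (adjusted p = 0.0043), Tap2 at 0.53 (adjusted p = 0.00615), Tapbp at 0.54 (adjusted p = 0.00656) and Tap1 at 1.39 (adjusted p = 2.87e-09). The axis was estimated from the same libraries after seeing the data and centred within groups, so these p-values are too small, and the estimates differ little from those without it.

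Of 18 other class I and class I-like genes that could be tested, 2 were called higher and 6 lower (median −0.37), against 9.73% higher and 8.76% lower of all genes. H2-M2 rose from 0.436 ± 0.181 to 6.70 ± 3.16 CPM, from 7 to 23 reads per library to 87 to 569 (log2 fold change 3.92 ± 0.45, adjusted p = 5.81e-14). H2-Q10 rose by 2.59 ± 0.67 (adjusted p = 0.00286, and 1.99 without KSR23 2), with overlapping groups, and 12.5% of its 75-base stretches also occur in other genes. Fcgrt, the neonatal Fc receptor that carries maternal IgG across the suckling gut and pairs with B2m, was the most abundant of the family and fell from 14896 ± 2207 to 4988 ± 2814 CPM without overlap (log2 fold change −1.58 ± 0.40, adjusted p = 0.00183). In the single libraries it was at 16444, 11372, 16669, 14130 and 15862 CPM in WT and at 4993, 1263, 9047, 4024 and 5612 in KSR23. H2-Bl, annotated as a polymorphic pseudogene (−0.98, adjusted p = 0.0169), Hfe, a partner of B2m in iron sensing (−0.91, adjusted p = 0.0225), and H2-T3, the thymus leukaemia antigen (−0.90, adjusted p = 0.0354), also fell. The quasi-likelihood test called 2 higher and 4 lower, without H2-T3 (adjusted p = 0.0564), against 8.47% and 6.91% of all genes. With replicates 1 to 3 alone, H2-M2 was the only 1 of the 18 called, where 3.36% of all genes were. H2-Q6 and H2-Q7 had no count in any library, which does not show that they were silent. Of their 75-base stretches, 21.1% and 17.0% also occur in other genes, and the part of read assignment was not tested.

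Of 15 genes that supply or load peptides, 4 rose and none fell (median 0.52), against 9.73% higher and 8.76% lower of all genes. These were Tpp2 (1.26 ± 0.26, adjusted p = 6.39e-05), a peptidase acting after the proteasome, the chaperone calnexin, Canx (1.11 ± 0.23, adjusted p = 2.99e-05), and the aminopeptidases Lap3 (0.89, adjusted p = 0.00387) and Lnpep (0.88, adjusted p = 0.0193). Canx was at 293 ± 41.7 CPM in WT and 633 ± 31.1 in KSR23. Tapbpl (0.17, adjusted p = 0.701) and Erap1, the trimming aminopeptidase of the endoplasmic reticulum (0.59, adjusted p = 0.191), did not pass. None of the 15 was called with replicates 1 to 3 alone, where 3.36% of all genes were. Each of the 4 was called by both tests in all libraries.

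Among 25 regulators of class I transcription and of interferon signalling, 5 rose and none fell (median 0.49), against 9.73% higher and 8.76% lower of all genes. Socs3, an inhibitor of cytokine receptor signalling, rose most (4.36 ± 0.60, adjusted p = 1.54e-08), from 3.39 ± 1.998 to 69.9 ± 61.1 CPM. Ifngr1, a chain of the interferon gamma receptor, rose by 1.17 ± 0.35 (adjusted p = 0.00891). Tyk2 (1.18, adjusted p = 0.0441) and Creb1 (0.85, adjusted p = 0.0145) also rose. Irf1 (0.64, adjusted p = 0.194), Rfx5 of the X-box complex (−0.59, adjusted p = 0.488) and Ciita, the class II counterpart of Nlrc5 (−0.19, adjusted p = 0.754), did not pass. By the quasi-likelihood test 4 of the 25 were called, without Tyk2 (8.47% of all genes were called higher). With replicates 1 to 3 alone only Socs3 was called, where 3.36% of all genes were.

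Ifng was the only one of 6 interferon genes with enough counts to test. The 5 WT libraries held 2, 1, 0, 1 and 8 reads of it and the 5 KSR23 libraries 42, 12, 29, 31 and 16, without overlap (log2 fold change 2.86 ± 0.75, adjusted p = 0.00167). With 1 library left out the log2 fold change ran from 2.54 (without KSR23 3) to 4.13 (without WT 5, which held 8 of the WT reads). Interferon-stimulated genes were split, with 8 of 20 higher and 5 lower (median −0.16), against 9.73% higher and 8.76% lower of all genes. Mx1 (3.17, and 3.89 without WT 3), Cxcl9 (2.06), Gbp5 (2.02) and Cxcl10 (1.84) rose most, and Ifit3 (−2.53), Rsad2 (−1.36), Xaf1 (−1.36) and Ifit2 (−1.28) fell most, each past the likelihood ratio test (adjusted p from 5.44e-11 for Ifit3 to 0.0334 for Ifit2). The quasi-likelihood test gave 8 higher and 3 lower, without Ifit2 (adjusted p = 0.0717), against 8.47% and 6.91% of all genes. Replicates 1 to 3 alone gave 0 higher and 1 lower, where 3.36% of all genes were called.

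**Figure D4:**
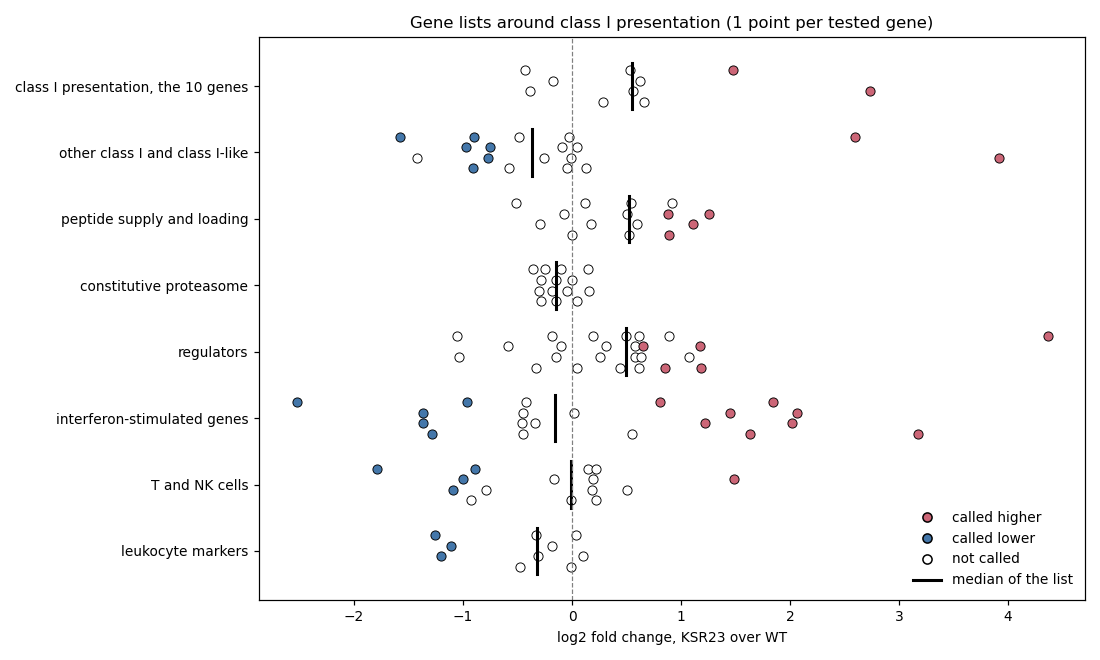
Log2 fold change, KSR23 over WT, of each tested gene (points) in 8 lists, red where the likelihood ratio test called it higher, blue where lower and open where not called, with a vertical bar at the median of each list. The class I members have a median of 0.55 and the interferon-stimulated genes one of −0.16 with calls in both directions.

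The cells that carry these transcripts were not separated, and markers of several cell types moved with genotype. Of all genes, the likelihood ratio test called 9.73% higher and 8.76% lower, and the quasi-likelihood test 8.47% and 6.91%. With replicates 1 to 3 alone, 3.36% of all genes were called in either direction. T and NK cell markers summed to 36.4 to 45.8 CPM in WT and 16.4 to 27.7 in KSR23, with 1 of 15 higher (Cd5) and 4 lower (Gzma, Nkg7, Cd8a and Cd3g), a median of −0.01, and 7 positive and 8 negative values. Gzma, a granule protease, alone went from 15.2 ± 2.80 to 4.41 ± 1.03 CPM. Cd8a, a chain of the coreceptor that binds class I, was at −1.003 (likelihood ratio, adjusted p = 0.0231), which the quasi-likelihood test did not call (adjusted p = 0.0514), and its partner chain Cd8b1, named after its value was seen, was at 0.15 (adjusted p = 0.865). By the quasi-likelihood test 0 of the 15 were higher and 3 lower, and with replicates 1 to 3 alone 1 was lower. General leukocyte markers summed to 304.5 to 367.1 CPM and 183.4 to 278.2, with 3 of 10 lower (Cd52, Tyrobp and Arhgdib), while Ptprc did not differ detectably (0.03, adjusted p = 0.965). Epithelial markers summed to 3098 to 5859 CPM in WT and 6107 to 10160 in KSR23, with 3 of 9 higher (Krt20, Elf3 and Cdh1). Jejunum markers had 3 of 9 lower (Fabp2, Fabp1 and Lct), endothelial markers 2 of 8 lower (Emcn and Cdh5), and myeloid markers 2 of 10 higher (Cd14 and Itgam) and 1 lower (Cd68). Of the markers of other gut tissues 1 of 7 was higher (Slc10a2) and 2 lower (Cpa1 and Alb). By the quasi-likelihood test the calls were 2 higher for epithelial markers (without Cdh1), 1 lower for jejunum markers (Fabp2), 1 higher and 1 lower for myeloid markers (without Itgam) and none for other gut tissues, where the likelihood ratio test had 3 at an unadjusted p under 0.05. With replicates 1 to 3 alone, 1 epithelial marker was called and none of the leukocyte, jejunum, endothelial, myeloid or other gut markers. The part of these shifts in the values of the class I genes was not tested.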

How the data were processed

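Jejunum RNA of 5 WT and 5 KSR23 libraries was primed with oligo-dT, amplified with a low-input kit without molecular identifiers, and read from 1 end over 75 bases. The authors mapped reads to mm10 with TopHat2 2.1.0 and the deposited files hold whole-number counts per gene symbol made with HTSeq 0.6.1p1, per the submitters' processing notes, which also name edgeR 3.18.1 and FastQC. The deposited counts were not normalized, and each file holds 1 library. The strand setting is not given in the sources used here. Groups and replicate numbers came from the sample titles.

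Counts of all 10 libraries were fitted in edgeR 4.0.16 (R 4.3.3) with TMM factors, after a filter (5 counts or more in any 1 library) that left 17632 genes. The group was the only term. The likelihood ratio test, as in the study, was the main test and the quasi-likelihood test is beside it, with Benjamini-Hochberg adjustment over all genes and calls at an adjusted p under 0.05. Log2 fold changes (KSR23 over WT) carry the model's standard errors, CPM uses TMM-scaled totals, and log2 CPM a prior count of 2. Ratios used a pseudocount of 0.5 and two-sided exact permutation over 252 splits. The fits were tested on simulated counts. Totals of 25.5 to 60.9 M counts per library limit counting error only, since PCR copies cannot be recognised. DESeq2 1.42.0, other scalings and filters, and sample subsets were alternatives.

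The members and gene lists were chosen with earlier results of these data known. Named genes were the 10 members, up to 4 called genes per list and direction with the largest fold change, 12 fixed genes, and the 5 genes most like the members' mean among genes with a mean CPM of at least 1. Transcript lengths and positions came from GENCODE M21, promoters from RefSeq. Deviations of same-numbered libraries correlated at r = 0.406, 0.359 and 0.486 for replicates 2, 4 and 5 and at −0.74 and −0.689 for replicates 1 and 3, the pairs with WT 1 and KSR23 3 (9737 genes). As not all pairs correlated, the numbers were not used as pairs. Results for some of the listed genes are not reported here.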

Additional observations from a re-analysis of the deposited data

Results flagged for a closer look

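Among 142 groups of 5 values examined, 6 had 1 library far from the other 4, where 7.1 are given by chance, so none is singled out by its presence here. Of values of the class I genes, the log2 ratio of Tap1 to Tap2 in KSR23 3 was −2.247 against −0.344 to 0.2363 in the other KSR23 libraries. Log2 CPM of Tyk2 in KSR23 3 was 3.001 against 4.501 to 5.074, and that of Cxcl9 in KSR23 2 was 1.499 against 3.131 to 3.742. In WT 3, Canx was at 7.788 (others 8.206 to 8.337), Elf3 at 8.166 (others 8.405 to 8.492) and Lct at 8.696 (others 9.242 to 9.452).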

How the results depend on the processing

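Of the 10 members, 2 were called in the main analysis. The count was 1 (Nlrc5) by the quasi-likelihood test, with library totals alone, with the replicate block and with replicates 1 to 3 alone, 0 with replicates 1 to 3 and the quasi-likelihood test, 7 with the within-group axis as a term, 3 with the Y-linked share as a term (B2m then lower), and 1 to 2 when each library was left out in turn. Genes called fell from 3261 to 579 with replicates 1 to 3 alone and to 140 by the quasi-likelihood test on them, and rose to 6489 with the axis as a term. The replicate block left 2202 genes and Tap1 at an adjusted p of 0.143, and it changed no call of a ratio (smallest possible exact p 0.0625). The labels do not say that the numbers mark pairs, and same-numbered libraries deviated together in 3 of 5 cases. Leaving out 1 library moved the number of genes called between 2370 and 3802. The cause of these differences was not tested, apart from the fewer libraries of the subsets.

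The subsets with WT 1 and KSR23 3 left out, with replicates 1 to 3 and the quasi-likelihood test, and with the axis as a term, and the ratio of Tap1 to Psmb9, were chosen after seeing the data. Across alternatives, members kept their side of the threshold in 200 values, moved past it in 6 and lost it in 14, and none changed sign. With 1 library left out, log2 fold changes ran from 0.3615 to 0.9144 for H2-K1, 0.3936 to 0.9621 for H2-D1, −0.6185 to −0.2781 for B2m, 0.3518 to 0.8781 for Tapbp, 0.07577 to 0.5251 for Psmb8, −0.4427 to −0.2743 for Psmb9 and −0.2233 to −0.05926 for Psmb10, and the ratio differences from 0.6213 to 1.872 for H2-K1 plus H2-D1 over B2m, 0.6449 to 1.321 for Tap1 over Tap2, 0.04726 to 0.579 for Psmb8 over Psmb5 and −0.4205 to −0.09356 for Psmb10 over Psmb7. Other named genes held in 964, lost the call in 241, gained it in 2 and changed sign in 18, none of them called in the main analysis. Ptprc became −0.003947 with DESeq2, −0.003925 with RLE factors, −0.09939 with library totals, −0.07745 with the replicate block, −0.08392 with replicates 1 to 3 (−0.08385 by quasi-likelihood), −0.1547 with the Y-linked share and −0.04611 without WT 1 and KSR23 3, and ran from −0.131 to 0.2923 when 1 library was left out. Psmb5 became −0.01583 with library totals and −0.1657 with the Y-linked share (−0.06515 to 0.1589 with 1 library left out). With the Y-linked share, Psmb7 became −0.3387, Rfx5 0.09158 and Ciita 0.1183 (Ciita −0.3106 to 0.01873 with 1 library left out). The log2 ratio difference of Psmb9 to Psmb6 ran from −0.3382 to 0.02164. Of 66 named genes and members, 42 lost their call with replicates 1 to 3 alone.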
